A study of Homo sapiens with 12 samples.

Results

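The genes described here are 7 established targets of the transcription factor p53, CDKN1A, GADD45A, MDM2, SESN1, TP53I3, FAS and TNFRSF10B. Every gene probe of the arrays whose gene name equals a listed symbol was taken, which gave 13 of the 41000 gene probes and 7 of 30238 gene names. MDM2 had 4 probes, CDKN1A, SESN1 and TNFRSF10B had 2 each, and the other members had 1.

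RNA was compared on 12 two-color arrays between untransfected parental Rh30 cells (WT), an Rh30 control clone (CON) and an Rh30 clone with stable knockdown of PAX3-FKHR (KD1). Rh30 is a human alveolar rhabdomyosarcoma line that carries this fusion gene. Each of the 3 comparisons, written KD1/CON, KD1/WT and WT/CON with the numerator of the ratio first, had 2 biological replicates, each hybridized as a dye-swap pair, and the 12 arrays hold 6 RNA extracts. Cells were grown for 24 h, and 500 ng of RNA was labeled. Both clones carry a retroviral short-hairpin vector, directed at the fusion transcript in KD1 and at no human transcript in CON, and both were kept in puromycin at 1 μg/mL. WT has no vector and received no puromycin. Each construct is represented by 1 clone, so the knockdown and any other property of the KD1 clone cannot be told apart, and the same holds for CON. The KD1 extracts are on both KD1 comparisons. A p-value rests on the spread between replicate extracts, pooled over the 3 comparisons and moderated by limma towards that of all probes. Fewer expressing cells and less RNA per cell also cannot be told apart in such bulk extracts.

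p53 is activated by DNA damage and other stresses and binds DNA as a tetramer at paired decamer sites. It raises genes that stop the cell cycle, repair DNA, adjust metabolism or start apoptosis, and it raises MDM2, whose product marks p53 for degradation and so closes a feedback loop. The p53 of Rh30 is known to be mutated, and several of these genes are also raised without p53 by other stress pathways.

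A p53 site with both decamers adjacent, as in the textbook consensus, was searched in the 12 RefSeq promoter windows that 5 members have on GRCh38.p14, each running from 250 bases before to 50 bases after a transcript start. A match was allowed 2 mismatches, with the C and G at the core of each decamer kept. The consensus is its own reverse complement, so both strands were covered. MDM2 had the site in 2 of its 4 windows, which overlap, and FAS in 1 of 3. CDKN1A, SESN1 and TP53I3 had none in their windows. The same search found a site in 100 of all 35116 windows, or 0.285%. The matches are shown because they are the kind of sequence through which p53 is known to act. The capitals mark the core C and G of each decamer, and each match differs from the consensus at 2 positions.
MDM2, chr12:68808923-68808942, plus strand, from position −94 relative to one start and −101 relative to the other: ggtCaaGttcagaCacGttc
FAS, chr10:88991309-88991328, plus strand, from position −122 relative to the start: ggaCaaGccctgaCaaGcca
A match describes the letters in the window and was not measured as binding in these cells.

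Of the 13 member probes, 11 were well above background on all 24 readings, which are 8 readings for each culture. The exceptions were the FAS probe and the dimmest MDM2 probe. To be tested in a comparison, a probe had to be brighter in 1 or both channels of all 4 arrays than 99 percent of the 153 negative control spots. No member passed the adjusted threshold of 0.05 in any comparison. By limma, 0 of 11 member probes tested passed in KD1/CON, where 1.79% of all 21937 probes tested did, with 2 member probes at an unadjusted p under 0.05. In KD1/WT 0 of 12 passed against 1.05% of 24884 probes, with 5 at an unadjusted p under 0.05, and in WT/CON 0 of 12 passed against 1.37% of 26595 probes, with 0 at an unadjusted p under 0.05. With each gene taken at its brightest probe, 0 members were called against 1.92%, 1.18% and 1.5% of all genes tested in the same order, and 1 of 6 members tested had an unadjusted p under 0.05 in KD1/CON, 3 of 7 in KD1/WT and 0 of 7 in WT/CON. The shares of all genes tested with such a p were 17.3%, 17.4% and 16.7%. A single direction on all 4 arrays was seen for 1 of 6 members in the first comparison, 6 of 7 in the second and 4 of 7 in the third, against 51.4%, 33.1% and 43.6% of genes. In KD1/WT the 3 of 7 and the 6 of 7 include FAS. Its KD1 signal was near background, and it could pass the filter there through WT alone. Of the 6 members tested in both KD1 comparisons, the extract levels did not overlap for 1 between KD1 and CON, for 4 between KD1 and WT and for 3 between WT and CON, against 48.1%, 43.7% and 49.5% of 15714 genes.

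The cultures were checked against their label and each other first. Of 7 markers of the skeletal muscle lineage and of fusion-positive rhabdomyosarcoma, 5 were well above background on every reading in every culture, among them MYOD1, MYOG and DES, while TFAP2B was above background on 0 of 24 readings. Their summed level was 107357 to 179804 over the 6 extracts, and MYOG was called lower in WT than in CON (−1.81 ± 0.45, limma adjusted p = 0.0176), a call that was lost in 3 of 8 other fits (adjusted p of 0.0646 to 0.209). The extracts of one culture were not alike. EPCAM, an epithelial adhesion gene, had WT/CON log2 ratios of 0.24 in replicate 1 and 5.43 in replicate 2 and was well above background on 4 of 8 WT readings and on none in the clones. KRT19, which marks epithelial cells too, had KD1/WT ratios of 0.34 and −3.17, and CDH1 had WT/CON ratios of 0.10 and 2.21. In KD1/CON the replicates of these 3 genes lay closer together, between −0.39 and 0.70. Why the WT extracts differ was not tested, and it bears on every ratio to WT and its n of 2. The summed level of 5 epithelial markers was 1766 in WT extract 2 and 936 to 1197 in the other extracts. The summed level of 6 fibroblast markers was 7307 in WT extract 1 and 2466 to 4233 in the others, with LUM and PDGFRA above background on 0 readings. Of 6 blood and endothelial markers, 3 were well above background throughout and their summed level was 815 to 1277. Replicate values correlated across the probes tested with 0.701 in KD1/CON, 0.389 in KD1/WT and 0.483 in WT/CON. For the brightest probe of each member the replicates are therefore given beside the mean. For the targeted fusion, the brightest PAX3 and FOXO1 (FKHR) probes gave mean KD1/CON ratios of −0.42 and −0.42 and mean KD1/WT ratios of −0.39 and −0.60 on the log2 scale. None of these passed the limma test (adjusted p 0.273 to 0.432), and whether a probe reads the fusion, the unrearranged gene or both was not tested. The dimmer PAX3 probes gave means of −0.28 and −0.09 in KD1/CON and −0.25 and 0.06 in KD1/WT. The dimmer FOXO1 probe gave −0.39 in KD1/CON and −0.30 in KD1/WT, and none of the dimmer probes was called. By RT-PCR and Western blot the paper reports less fusion mRNA and protein in KD1 than in CON, and describes the knockdown as partial.

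**Figure D1:**
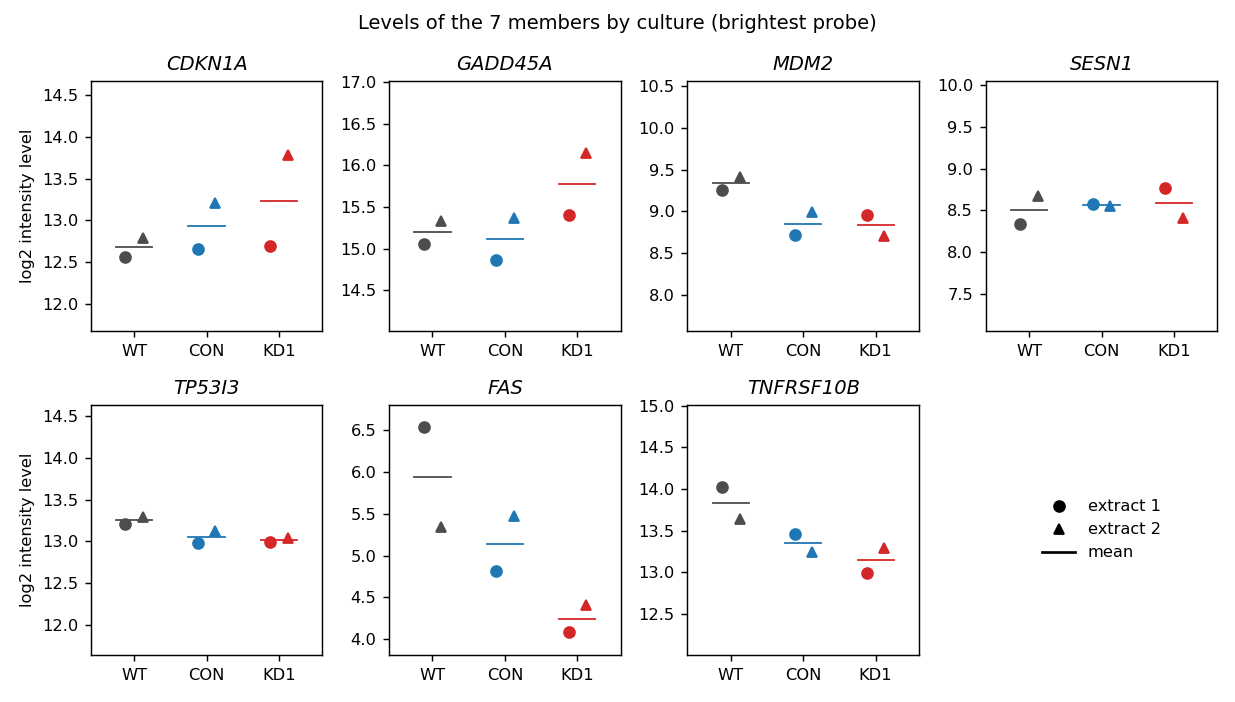
Log2 intensity level of each member's brightest probe in the 2 RNA extracts of WT, CON and KD1 (circle, extract 1; triangle, extract 2; line, mean), averaged over the 4 arrays of an extract after quantile scaling of the arrays. Every panel spans 3 log2 units; both KD1 extracts lie above all others for GADD45A and below all others for FAS, while the KD1 extracts of CDKN1A are 12.69 and 13.78.

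Of the 2 members that arrest the cell cycle, GADD45A was the one that was higher in KD1 on every array. Its product, induced by DNA damage and other stresses, interferes with cell-cycle kinases and takes part in DNA repair. The probe (A_23_P23221, chromosome 1 of NCBI36, 67925959 to 67926018, plus strand) had log2 ratios in KD1/CON of 0.40 and 0.62 on the replicate 1 arrays and 0.63 and 0.73 on the replicate 2 arrays. In KD1/WT these were 0.20 and 0.41 for replicate 1 and 0.62 and 1.13 for replicate 2. All 8 KD1 arrays were thus above 0, and both KD1 extracts lay above all extracts of the other cultures. The mean was 0.60 ± 0.11 (SD, n = 2) in KD1/CON, a 1.51-fold difference, and 0.59 ± 0.40 in KD1/WT. The 95% intervals of the limma fit were 0.11 to 1.09 and 0.09 to 1.09, and the adjusted p was 0.209 and 0.228. In WT/CON the replicates were 0.19 and −0.06. Among the 6 members tested in both KD1 comparisons, GADD45A was the only 1 with a single direction on all 8 KD1 arrays, against 16.7% of the 15714 genes tested in both (8.03% higher and 8.65% lower in KD1).

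CDKN1A, which encodes the cyclin-dependent kinase inhibitor p21, differed mainly in replicate 2. Its brightest probe (A_23_P59210, chromosome 6, 36762684 to 36762743) is printed in 10 spots, with a median SD between spots of 0.03 on the log2 scale. In KD1/CON its log2 ratios were 0.14 and −0.03 on the replicate 1 arrays and 0.68 and 0.39 on the replicate 2 arrays. In KD1/WT they were 0.18 and 0.09 against 0.87 and 0.86. The 2 replicates were therefore 0.05 and 0.54 in the first comparison and 0.13 and 0.87 in the second, and the level of KD1 extract 1 overlapped with CON and WT. The mean ratios were 0.30 ± 0.34 and 0.50 ± 0.52 (SD, n = 2), with limma intervals of −0.25 to 0.84 and −0.06 to 1.06 and adjusted p of 0.587 and 0.338. In WT/CON the ratio was below 0 on all 4 arrays, with a mean of −0.26 ± 0.22.

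The other CDKN1A probe (A_24_P89457, 36760156 to 36760215) had mean ratios of 0.30 ± 0.43 in KD1/CON, 0.68 ± 0.35 in KD1/WT and −0.41 ± 0.14 in WT/CON. In this probe both KD1 extracts, with log2 levels of 9.15 and 10.02, lay above the WT extracts (8.68 and 9.09) and overlapped with CON (9.13 and 9.40). The replicates of the KD1 comparisons also differed in a list of 8 integrated stress response genes, which are raised when translation is limited. Their median log2 ratio was 0.40 in replicate 1 and 1.00 in replicate 2 of KD1/CON, and 0.30 and 1.70 in KD1/WT. In WT/CON, which holds no KD1 extract, the median was −0.17 in replicate 1 and −0.60 in replicate 2. The part of these genes in the CDKN1A and GADD45A ratios was not tested.

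By the smallest root mean squared difference over the 12 array ratios, the 3 genes most like CDKN1A among 12281 named genes were PARP6 (0.125 log2), PCBP1 (0.132) and ARNTL (0.135), where the median gene had 0.619. These values are a description, since the 12 ratios share 6 extracts.

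MDM2, the feedback inhibitor, was lower in both clones than in WT by its means. The brightest probe (A_23_P139895, chromosome 12, 67522396 to 67522455) had log2 ratios in WT/CON of 0.58 and 0.53 on the replicate 1 arrays and 0.37 and 0.46 on the replicate 2 arrays. In KD1/WT the values were −0.28 and −0.26, then −0.76 and −0.51. Both WT extracts had a higher level than all clone extracts, as was also the case for the next brightest probe. The mean was 0.49 ± 0.10 (SD, n = 2) in WT/CON and −0.45 ± 0.26 in KD1/WT (limma adjusted p, 0.325 and 0.346). Between the clones the replicates had opposite signs, 0.27 and −0.28, and the limma interval of the mean of −0.01 was −0.51 to 0.49. Between the clones no direction could thus be given for MDM2.

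A_24_P925664 (67525158 to 67525217) had means of −0.14 in KD1/CON, −0.62 in KD1/WT and 0.52 in WT/CON, with adjusted p of 0.830, 0.236 and 0.323 from limma. A_23_P309545, which carries the accession of another MDM2 transcript and lies nearest to the start of the gene (67489279 to 67489338), had means of 0.11, −0.39 and 0.40, but its dye-swap arrays had opposite signs in replicate 2 of KD1/WT, and its extract levels overlapped between all cultures. The dimmest probe (A_23_P502750, 67520089 to 67520148) was well above background on 2 of 8 KD1 readings, 3 of 8 CON readings and 4 of 8 WT readings and was not tested. Its 10 spots had a median SD of 0.51, and its means were −0.18, −0.62 and 0.21.

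**Figure D2:**
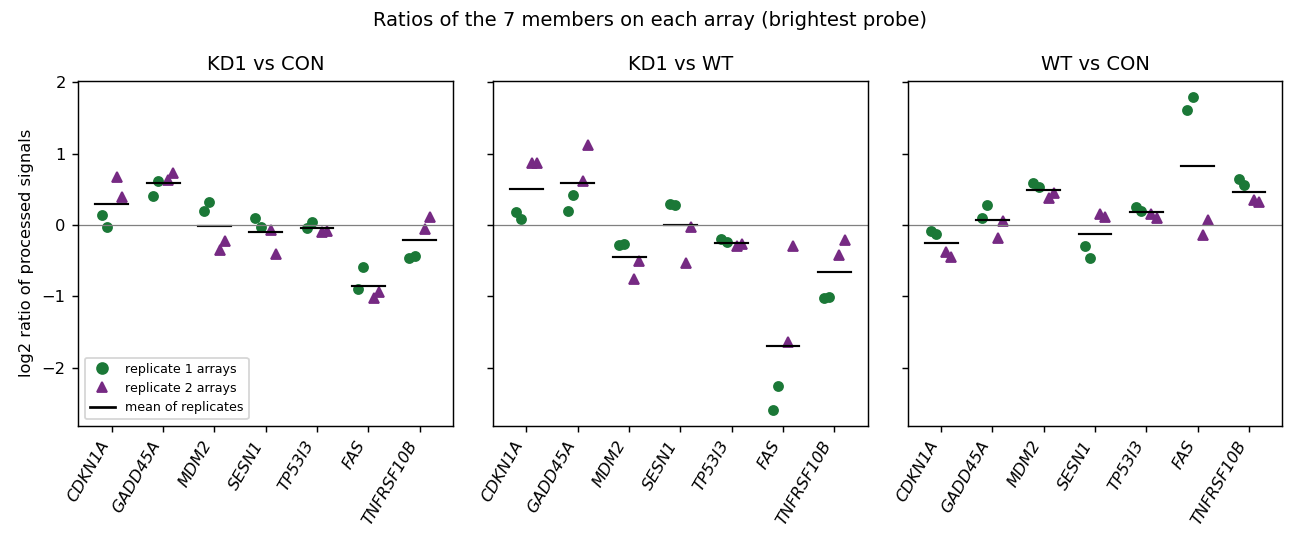
Log2 ratio of the processed signals of each member's brightest probe on each of the 4 arrays of a comparison (circles, replicate 1; triangles, replicate 2; line, mean of the 2 replicates). GADD45A lies above 0 on all 8 KD1 arrays and FAS below 0 on all 8. In KD1/CON the means of the 2 dye-swap pairs have opposite signs for MDM2, SESN1, TP53I3 and TNFRSF10B.

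SESN1 and TP53I3 act in metabolism and redox balance. Sestrin 1 restrains mTORC1 signaling, and TP53I3 encodes a quinone oxidoreductase. The brightest SESN1 probe (A_23_P93562, chromosome 6, 109415170 to 109415229, minus strand) had replicate values of 0.04 and −0.24 in KD1/CON, 0.28 and −0.28 in KD1/WT and −0.38 and 0.13 in WT/CON. The replicates had opposite signs in all 3 comparisons, the extract levels of the cultures overlapped, and the adjusted p was 0.843 to 0.998 in limma. The other SESN1 probe (A_24_P346339) had means of −0.09, 0.15 and −0.01.

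TP53I3 was the member with the smallest spread. Its probe (A_23_P5392, chromosome 2, 24154119 to 24155860, minus strand) had log2 ratios in KD1/WT of −0.19, −0.23, −0.30 and −0.26 on the 4 arrays. In WT/CON they were 0.25, 0.20, 0.16 and 0.10, and in KD1/CON −0.04, 0.05, −0.10 and −0.09. WT was thus higher than each clone on all 8 arrays that hold it, by 1.18-fold over KD1 and 1.13-fold over CON. The limma intervals of these means included 0 (−0.69 to 0.21 and −0.29 to 0.64), with adjusted p of 0.564 and 0.715.

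Of the 2 death receptors, FAS had the lowest signal of all members, and its ratios depended most on the background correction. FAS (CD95) is a cell-surface receptor that activates caspases on binding FAS ligand. Its only probe (A_23_P63896, chromosome 10, 90764525 to 90764584) had a median processed signal of 74.9 in WT, 35.1 in CON and 19.5 in KD1. Of the 8 KD1 readings 4 were well above background, all of them on dye-swap arrays, whereas all 8 readings of CON and of WT were.

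On the 4 KD1/CON arrays the log2 ratios of FAS were −0.90, −0.58, −1.02 and −0.94. Their mean was −0.86 ± 0.17 (SD, n = 2), a 1.82-fold lower signal, but only 2 of the 4 arrays passed the signal criterion and the probe was not tested. With normexp background correction and loess in place of the processed signals, the means of FAS were −0.10 in KD1/CON, −0.35 in KD1/WT (limma adjusted p = 0.330) and 0.24 in WT/CON. The values that follow rest on the processed signals. On the KD1/WT arrays the ratios were −2.59 and −2.26 in replicate 1 and −1.64 and −0.29 in replicate 2. The mean of −1.69 ± 1.04 had a limma interval of −2.63 to −0.76 and the smallest adjusted p of any member, 0.107. The probe passed the signal criterion on all 4 KD1/WT arrays, where 1 channel suffices and WT gave the higher signal. The KD1 side was near background, so the size of this ratio is uncertain. KD1 was the lowest culture in both replicates, while WT and CON could not be ordered. In WT/CON the replicates were 1.71 and −0.04, and the levels of the WT extracts were 6.54 and 5.35 on the log2 scale against 4.81 and 5.47 in CON. WT extract 1, in which FAS was high, is also the extract with the highest sum of fibroblast markers (7307), and their part in the FAS ratio was not tested.

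TNFRSF10B, the TRAIL receptor DR5, was read differently by its 2 probes, both on chromosome 8 and both with the same transcript accession. The brighter probe (A_24_P218265) had log2 ratios in WT/CON of 0.65 and 0.56 on the replicate 1 arrays and 0.35 and 0.32 on the replicate 2 arrays. The other probe (A_23_P169030) had −0.40, −0.44, −0.52 and −0.54 on the same arrays. The probes thus had opposite directions on all 4 arrays, and their difference of 0.94 ± 0.11 (SD, n = 2) exceeded its spread between replicates.

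In KD1/WT the brighter TNFRSF10B probe was below 0 on all 4 arrays, with replicate values of −1.02 and −0.31 and a mean of −0.66 ± 0.50, while the other had −0.48 and 0.07. In KD1/CON it was the other probe that was below 0 on all 4 arrays, with replicate values of −0.99 and −0.39 and a mean of −0.69 ± 0.42, while the brighter had −0.45 and 0.03. Neither passed the limma test, with an adjusted p of 0.220 for the brighter probe in KD1/WT and 0.180 for the other in KD1/CON. The direction of TNFRSF10B between WT and CON depends on the probe. Both probes had their lowest mean level in KD1.

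**Figure D3:**
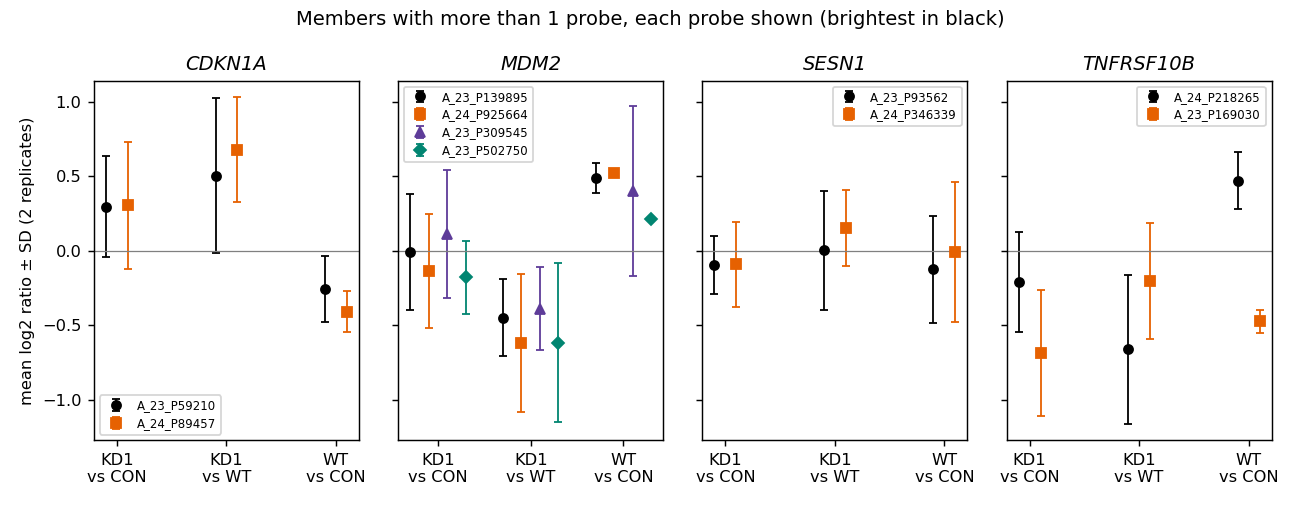
Mean log2 ratio ± SD over the 2 replicates in KD1/CON, KD1/WT and WT/CON for every probe of the 4 members with more than 1 probe (black, brightest probe). The largest gap between probes in WT/CON is that of TNFRSF10B, with means of 0.47 and −0.48. MDM2 probe means range from 0.21 to 0.52 in WT/CON and from −0.18 to 0.11 in KD1/CON, with smaller gaps for CDKN1A and SESN1.

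The ratio of KD1/CON should equal the sum of the other 2 comparisons for each replicate, since all 3 read the same extracts. For the brightest probes of the members the difference was between −0.13 and 0.13 on the log2 scale, against a median size of 0.05 in replicate 1 and 0.07 in replicate 2 over 21870 probes. The largest difference of a member probe was −0.59, for the dimmer SESN1 probe in replicate 2, where its dye-swap arrays in KD1/WT had −0.88 and 0.82.

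A selection by fold, modeled on the one in the methods of the study, was then applied to the members. The methods do not state on how many arrays the signal was required, so the genes selected need not be those of the study. The selection asked here for a mean of at least 2-fold in both KD1 comparisons, the same direction on all 8 arrays and, on each of them, a signal past the negative-control limit. It took 0 of the 7 members, where 0.623% of 15718 genes with that signal were selected as higher and 1.01% as lower. Under this signal rule FAS could not be selected for KD1 or for CON, since only 2 of its 4 KD1/CON arrays passed. With CON in the place of KD1, 0 members were selected against 0.641% higher and 0.876% lower, and with WT 0 against 0.799% and 0.675%. At 1.5-fold GADD45A was selected as higher in KD1, and it lay just past that threshold in both comparisons, where 2.2% of genes were selected as higher and 2.97% as lower. At 3-fold 0 members were selected against 0.134% and 0.401%, and with the signal asked for on at least 1 array 0 against 0.867% and 0.972%.

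Other p53 targets, 38 genes in 3 lists written from general knowledge, were read in the same way. In KD1/CON 0 of the 30 that could be tested were called by limma, with 5 at an unadjusted p under 0.05, where 0.857% of all genes tested were called higher and 1.06% lower. Of the 31 tested with WT in the ratio, 0 were called in KD1/WT and 0 in WT/CON, with 5 and 4 at an unadjusted p under 0.05, against 1.18% and 1.5% of all genes called in either direction. Over all genes tested, 17.3%, 17.4% and 16.7% had such an unadjusted p in KD1/CON, KD1/WT and WT/CON. The median ratios of the wider targets were 0.09, 0.02 and 0.01, with 19 of 30, 16 of 31 and 17 of 31 means above 0.

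Among 8 tested targets for metabolism, redox control and autophagy, all 8 had a mean above 0 in KD1/CON, with a median of 0.37 where that of all genes was −0.02. The same genes had 5 of 8 means above 0 and a median of 0.03 in KD1/WT, and 7 of 8 above 0 with a median of 0.34 in WT/CON. SESN2, a paralog of SESN1 that the integrated stress response also raises, had replicate values of 0.33 and 1.38 in KD1/CON and 0.26 and 1.42 in KD1/WT. None of the 8 was called in any comparison.

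The 10 tested targets for arrest and repair had medians of −0.22 in KD1/CON, −0.10 in KD1/WT and −0.01 in WT/CON, with 0 called. PLK2, a polo-like kinase, was below 0 on all 8 KD1 arrays, with means of −0.63 ± 0.34 and −0.80 ± 0.63. POLH, a DNA polymerase that bypasses lesions, had −0.99 ± 0.88 in KD1/WT and 0.71 ± 0.12 in WT/CON. The apoptosis targets had medians of 0.02 over 12 genes, 0.03 over 13 and −0.01 over 13 in the same order, with 0 called. PMAIP1, which encodes the BH3-only protein NOXA, was above 0 on all 8 KD1 arrays, with 0.68 and 1.55 in KD1/CON and 0.53 and 1.79 in KD1/WT (limma adjusted p, 0.125 and 0.132). LRDD (PIDD) had 0.79 ± 0.32 and TRIAP1 −0.63 ± 0.18 in WT/CON.

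**Figure D4:**
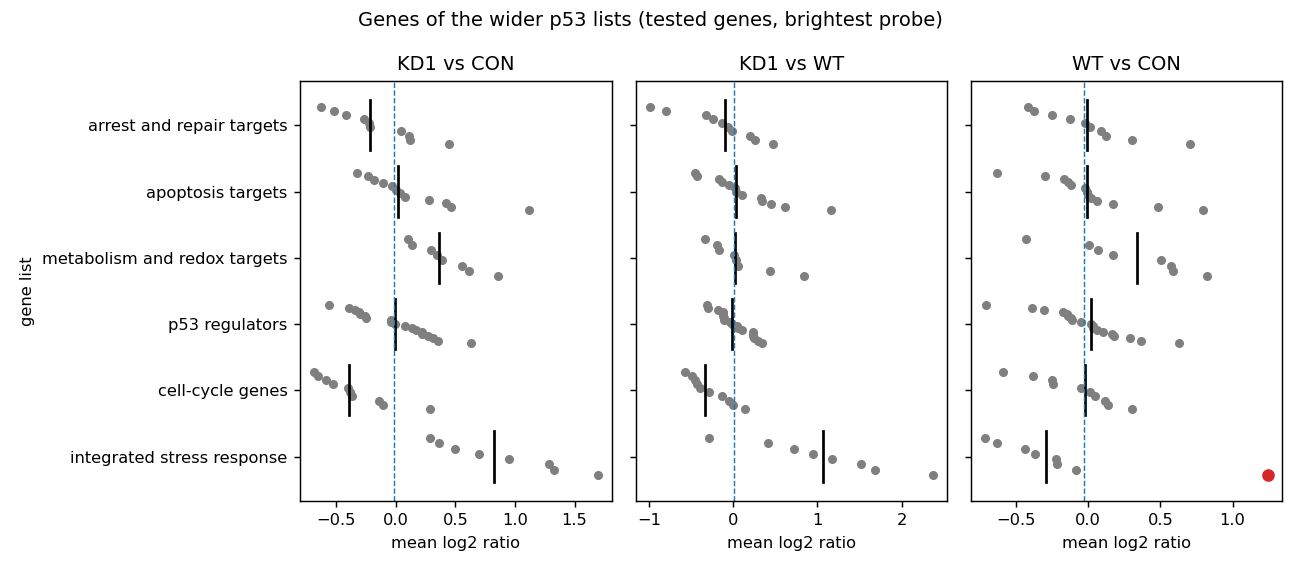
Mean log2 ratio of every tested gene of 6 of the wider lists, without the cell type markers, in the 3 comparisons (grey points; red, limma adjusted p under 0.05; black line, median of the list; dashed blue line, median of all genes tested). HSPA5 in WT/CON is the red point among the genes plotted, and the integrated stress response genes lie above 0 for 8 of 8 genes in KD1/CON.

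Of the death-receptor partners, FASLG was well above background on 0 of 24 readings, CASP10 on 1 and TNFSF10, the TRAIL ligand, on 12. Of the 3 genes of that list that could be tested, 0 were called. CFLAR, an inhibitor of caspase-8 activation at death receptors, had replicate values of 1.18 and 0.58 in KD1/CON, 0.57 and −0.65 in KD1/WT and 0.58 and 1.65 in WT/CON. The receptor paralogs TNFRSF10C and TNFRSF10D were above background on 0 readings and TNFRSF10A on 1. Of 10 paralogs of the members, 5 were tested and 0 called. GADD45G had means of −0.87 ± 0.29 in KD1/CON and −1.45 ± 0.56 in WT/CON, with adjusted p of 0.193 and 0.0717 from limma, where GADD45A had 0.60 and 0.07.

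Of 19 regulators of p53, all tested, 0 were called and the medians were −0.01 in KD1/CON, −0.02 in KD1/WT and 0.02 in WT/CON. PPP1R13B, which encodes the p53-binding protein ASPP1, had the largest KD1/CON mean of the list, 0.63 ± 0.19, and a WT/CON mean of 0.63 ± 0.55. CHEK1, a checkpoint kinase, had −0.56 ± 0.25 in KD1/CON but 0.24 and −0.47 in the replicates of KD1/WT. CHEK2, another checkpoint kinase, had −0.71 ± 0.29 in WT/CON. The 10 cell-cycle genes that are lowered when p53 and p21 are active had means below 0 for 9 of 10 genes in KD1/CON and 8 of 10 in KD1/WT, with medians of −0.39 and −0.34 and 0 called. The medians were −0.21 in replicate 1 and −0.68 in replicate 2 of KD1/CON, and −0.14 and −0.47 in KD1/WT. CDC25C had −0.43 and −0.94 in KD1/CON, and PLK1 had −0.25 and −0.89 in KD1/WT. In WT/CON 5 of the 10 cell-cycle genes had a mean below 0, with a median of −0.02. Over all genes tested the medians were −0.02 in KD1/CON, 0.005 in KD1/WT and −0.03 in WT/CON. The paper reports slower growth of the knockdown clones than of CON. The part of growth, or of p53 and p21, in the ratios of the cell-cycle genes was not tested.

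The integrated stress response genes had 8 of 8 means above 0 in KD1/CON and 7 of 8 in KD1/WT, with medians of 0.82 and 1.06 and 0 called. Of the 8 genes, 5 had an unadjusted limma p under 0.05 in KD1/CON, 6 in KD1/WT and 1 in WT/CON. The shares over all genes tested were 17.3%, 17.4% and 16.7%. TRIB3 had replicate values of 0.40 and 2.98 in KD1/CON, and ATF4, the central factor of the response, had 0.40 and 0.99. In WT/CON the median was −0.29, and HSPA5, a chaperone of the endoplasmic reticulum, was called higher with 1.45 and 1.05 and an adjusted p of 0.0482 from limma. This call was lost under 6 of 8 other fits (adjusted p of 0.0580 to 0.119). HSPA5 had replicate values of 0.89 and 1.01 in KD1/CON but −0.53 and −0.04 in KD1/WT, and its mean level was lowest in CON.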

How the data were processed

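The authors scanned the arrays and extracted them with Agilent Feature Extraction 10.5.1.1, per the submitters' processing notes. They deposited linear intensity values per spot (background-subtracted, detrended and lowess-normalized within the array, with surrogate values where a signal was not above background, which bears on FAS in KD1), a log10 ratio of red over green, and a series table with that ratio on the log2 scale. Here log2 ratios were computed from the processed intensities, with the sign set by the dyes so that the numerator is the culture named first, and averaged over unflagged spots and over each dye-swap pair. The 6 replicate values of a probe were fitted with limma 3.58.1 in R 4.3.3, with a coefficient per comparison, 2 residual degrees of freedom (the comparisons share extracts) and Benjamini-Hochberg adjustment over all probes tested. Pairing comes from the array itself, on which both cultures of a replicate are hybridized. Intervals are 95% and unadjusted. All 4 WT/CON arrays shared 1 slide, and each replicate of KD1 had its own slide, so the replicate values are also the values within a slide. The fit was tested on 10 simulated sets of independent extracts, with a log2 change of 2 in 200 probes in KD1/CON. On average it recovered 94.2% of these probes, with 8.6 false calls. The smaller changes seen for the members were not simulated. Levels per culture are means over the 4 arrays of an extract after quantile scaling. The brightest probe stood for each gene, with other probes beside it. From the wider lists the text names genes among those past the threshold, or up to 2 per comparison with the largest mean ratio among those with 1 direction on all 4 arrays; genes named outside that rule (ATF4, EPCAM, KRT19, CDH1, CFLAR and CHEK1 in KD1/WT and genes given for their detection) were chosen after their values were seen. The members and lists were chosen with earlier results of these data known. Probe positions are those of the files (NCBI36), promoter windows are RefSeq's, and Python 3.11.15 with pandas 2.3.3 was used. The array's own probes for p53, and a further list of p53 targets, are not reported here, so the counts over wider targets do not cover that list. Alternatives tried were median centring, normexp (offset 50) followed by loess, the series table, separate channels, no filter, 3 residual degrees of freedom, 2 coefficients, a fit of the 12 arrays with slide dye effects, each replicate left out, the mean over a gene's probes, and other fold and signal criteria. The fit of the 12 arrays has a dye effect per slide and the dye-swap pair as a random block, but no term for the slide.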

Additional observations from a re-analysis of the deposited data

How the results depend on the processing

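No member probe passed the adjusted threshold in any of the 8 alternative fits. The smallest adjusted p was 0.0699 from limma, for the second TNFRSF10B probe in KD1/CON in the fit of 12 arrays with slide dye effects. The number of probes past the threshold over all genes moved from 393 (KD1/CON), 261 (KD1/WT) and 365 (WT/CON) to 261, 138 and 182 with median centring, 161, 107 and 131 with 2 coefficients, 1006, 1031 and 1079 in the fit of 12 arrays, and 26, 1 and 2 with normexp and loess. Without the filter it was 254 in KD1/CON and 200 in WT/CON, and with 3 residual degrees of freedom 151 in KD1/WT and 233 in WT/CON. Without the pairing on the array (separate channels, no replicate block) it was 140, 119 and 102, and no member was called. The share of calls that were higher was 27.2% in KD1/WT and 56.7% in WT/CON, and moved to between 0% and 41.1% and between 56.5% and 100% over the alternatives. The call of HSPA5 was lost in 6 of the 8 fits and that of MYOG in 3.

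Of 222 member ratios recomputed, 15 changed sign, 7 under another processing and 8 with a replicate left out. The 222 include the fits without the filter, with other residual degrees of freedom and of all arrays with slide dye effects. Those fits gave back the reported ratio of each member and could not change its sign. The 15 of 222 is therefore not a measure of how stable the directions are. MDM2 in KD1/CON became 0.00606 with 2 coefficients and 0.00188 with normexp, SESN1 became 0.0293 in KD1/CON with separate channels and −0.0216 and −0.0292 in KD1/WT with median centring and normexp, GADD45A became −0.0485 in WT/CON with median centring, and TNFRSF10B became −0.00314 in WT/CON over both probes. FAS was −0.10 in KD1/CON, −0.35 in KD1/WT and 0.24 in WT/CON with normexp, where it did not have the largest ratio of the members in any comparison. At 1.5-fold 1 member met the selection criteria, and 0 at 3-fold or with the signal on at least 1 array. Leaving out a replicate leaves 1 value per comparison and no test, so no calls were counted; with each replicate left out the KD1/CON value ranged from −0.285 to 0.266 for MDM2, −0.238 to 0.0384 for SESN1, −0.0943 to 0.00347 for TP53I3 and −0.450 to 0.0283 for TNFRSF10B, the KD1/WT value from −0.280 to 0.283 for SESN1, and the WT/CON value from −0.0598 to 0.192 for GADD45A, −0.378 to 0.129 for SESN1 and −0.0395 to 1.71 for FAS. Replicate number and slide cannot be told apart in the KD1 comparisons. With 2 extracts per culture and FAS near background in KD1, these arrays limit the precision of every ratio given here.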
